A study of Saccharomyces cerevisiae with 18 samples.

Results

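The 38 genes described here are nuclear genes of the yeast respiratory chain and the mitochondrial ATP synthase, and the list is not complete. They were taken from a list of symbols, 1 probe set with a single gene per symbol, out of 5656 genes on the arrays. All 38 were found, and all 38 passed the filter on low values. They comprise 4 genes of complex II, 9 of complex III, 1 of cytochrome c, 8 of complex IV, 5 of the F1 part of the ATP synthase, 8 of its stalk and membrane part and 3 of the proteins that regulate its ATPase activity.

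The electron transport chain of the mitochondrial inner membrane passes electrons from succinate and other donors through ubiquinone, complex III and cytochrome c to complex IV, which reduces oxygen. Budding yeast has no proton-pumping complex I. Complexes III and IV pump protons, and the ATP synthase uses the proton gradient to make ATP, with a catalytic F1 part held by a stalk on a proton-conducting membrane part. Ethanol can be used for growth only by respiration, while yeast with ample glucose mainly ferments, and many respiratory genes are known to be repressed by glucose. The Hap2/3/4/5 complex is a known activator of such genes, with Hap4 as its regulated subunit.

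RNA was measured on 18 Affymetrix yeast S98 arrays in 6 groups of 3 independent cultures. The groups were a strain overexpressing FAR1, a far1 deletion strain and the wild type (WT), each in exponential growth in synthetic complete medium with ethanol or with glucose as carbon source. The stated purpose was to see how the dosage of FAR1, which codes for an inhibitor of a cyclin-dependent kinase, affects transcription in each carbon source. By their labels all strains are of the W303-1A background, MATa, and carry the alleles can1-100, ura3-1, trp1-1, his3-11 and ade2-1 and a leu2 allele. The deletion is given as far1::his3, and the overexpression strain carried the plasmid pTet-FAR1-15Myc. The labels do not say whether the other strains carried an empty plasmid, nor how many clones of a strain were used. Each array averages over a culture, so a change in the share of cells and a change in RNA per cell cannot be told apart.

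Several arrays stood apart. FAR1 intensity went against the label on array 3 of the arrays labelled FAR1 overexpression ethanol, where it read 2554.1, 2722.3 and 3.3, and on array 3 of those labelled far1 deletion ethanol, where it read 4.8, 5.3 and 2595.7. With glucose the overexpression arrays read 1019.5, 966.2 and 556.9, the deletion arrays 4.9, 7.0 and 4.1, and the WT arrays 19.7, 27.3 and 22.8. HIS3 read 127.2 to 340.0 on the 12 arrays of the FAR1 strains, against 6.4 to 10.2 on the 6 WT arrays, and TRP1 read 186.6 to 663.1 against 6.9 to 31.9. Every comparison of a FAR1 strain with WT is thus also one between strains that differ in HIS3 and TRP1 signal. The pheromone receptor genes went against the MATa label. STE3, specific to alpha cells, read 38.4 to 136.4 over all arrays, and STE2, specific to a cells, read at most 2.4. On FAR1 overexpression glucose arrays 1 and 3 the actin 5′ control probe set read 4.8 and 2.6, with an actin 3′ over 5′ ratio of 8.06 and 8.87 on the log2 scale, against 0.32 to 1.04 elsewhere. A further control, the ratio of the BioDn probe sets, was under 0.3 on the 6 WT arrays and far1 deletion glucose array 1 and 0.369 to 0.575 on the other 11. This split therefore follows the FAR1 strains against WT except for that 1 deletion array.

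All 38 genes were higher in ethanol than in glucose, whether FAR1 was overexpressed, deleted or wild type. The median log2 change (ethanol minus glucose) was 1.48 in the overexpression strain, 2.02 in the deletion strain and 1.96 in WT, where it ranged from 1.20 to 3.71. A gene was called when the adjusted p in limma, over the 5545 genes tested, was under 0.05. Of all tested genes, 40.2% were called in the overexpression strain (17.4% higher), 42.9% in the deletion strain (21.7% higher) and 43.3% in WT (22.4% higher). The median change of all genes was -0.09, -0.01 and 0.0 in the same strains. On the normalized scale the ethanol and glucose arrays did not overlap for 37 of the 38 genes in the overexpression strain, 37 in the deletion strain and all 38 in WT. Of all genes 50.0%, 52.7% and 54.9% did not overlap in these strains. The change was called and at least 2-fold for 36, 37 and 38 of the members, against 17.1%, 19.4% and 19.4% of all genes. Without array 3 of the arrays labelled overexpression ethanol and of those labelled deletion ethanol, all 38 were again called in both strains, with medians of 1.46 and 2.14.

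**Figure D1:**
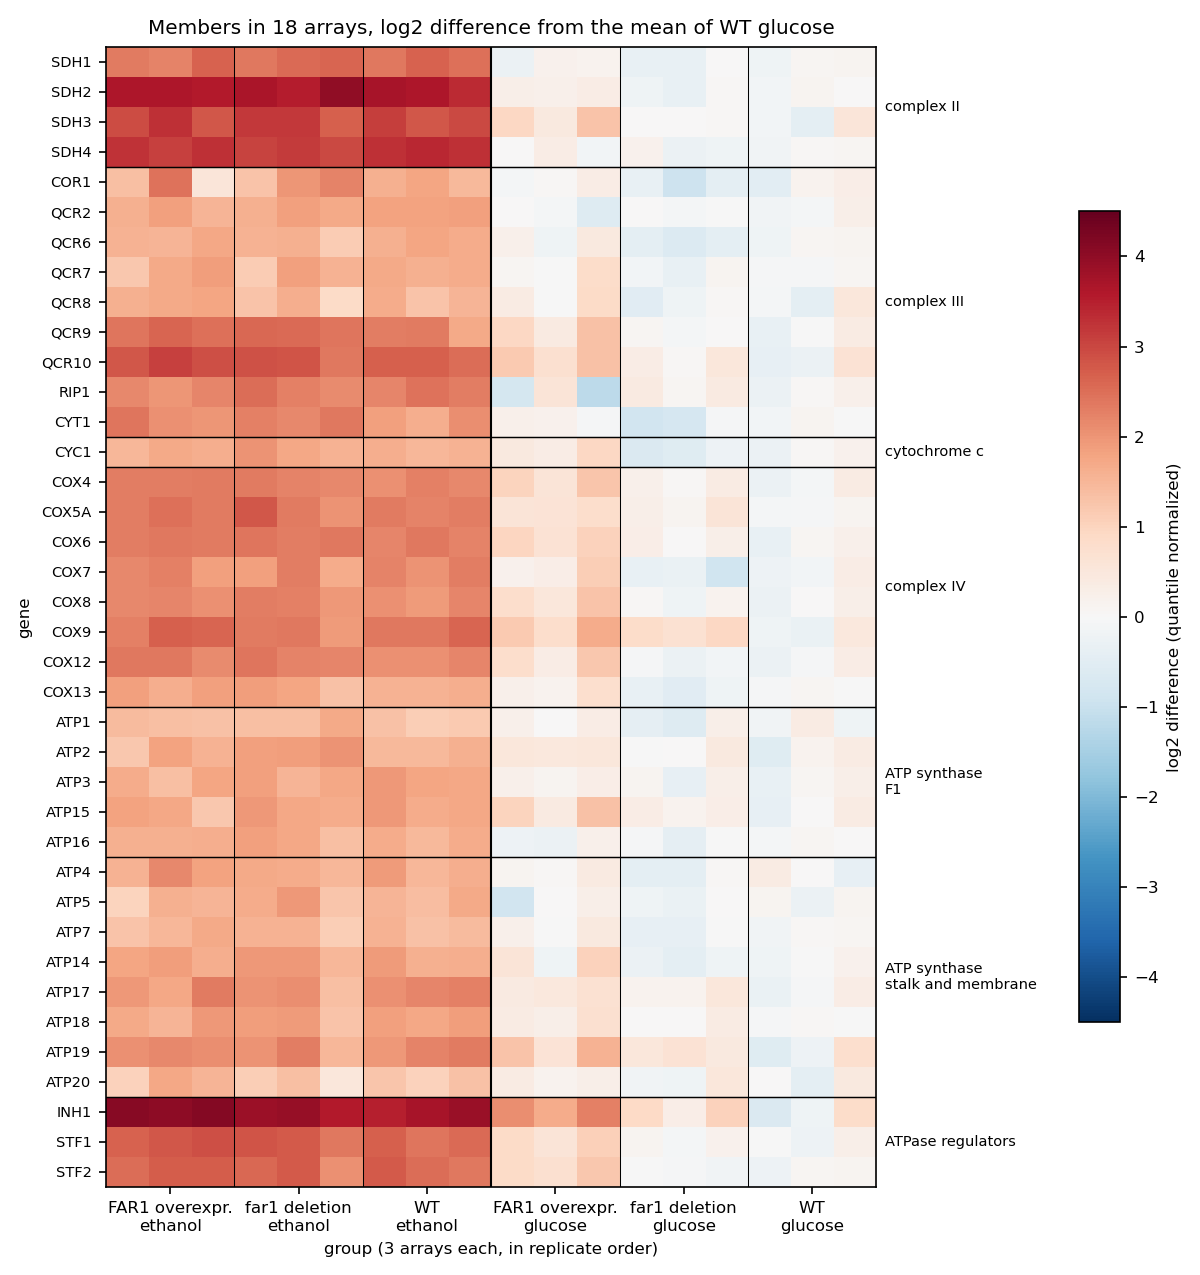
Log2 difference of each of the 38 genes on each of the 18 arrays from the mean of the 3 WT glucose arrays, after quantile normalization. Columns are arrays in their groups and rows are genes by complex. All genes are red, that is higher, on the 9 ethanol arrays at the left, and part of complex IV and the ATPase regulators are pale red in FAR1 overexpression glucose.

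Complex II, succinate dehydrogenase, links the tricarboxylic acid cycle to the chain and moved most, with class medians of 2.75 in the overexpression strain, 3.06 in the deletion strain and 3.14 in WT. SDH2, the iron-sulfur subunit, had an intensity of 1221.2, 1115.3 and 1316.5 in WT ethanol, against 59.5, 81.5 and 94.8 in WT glucose. It read 1043.5, 1508.4 and 1265.8 on the arrays labelled deletion ethanol, against 79.7, 103.7 and 102.9 in deletion glucose. It read 1273.3, 1330.2 and 1166.7 on the arrays labelled overexpression ethanol, against 124.7, 165.3 and 129.2 in overexpression glucose. Every ethanol array was thus far above every glucose array in each strain. The log2 rise of SDH2 was 3.33 ± 0.14 (SE, n = 3 arrays a group) in the overexpression strain, 3.90 ± 0.14 in the deletion strain and 3.57 ± 0.14 in WT (adjusted p = 7.94e-13 in limma for WT).

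SDH1, the flavoprotein that holds the catalytic site, rose least of the 4 genes in WT. Its intensity was 327.8, 391.4 and 448.5 in WT ethanol, against 33.3, 45.4 and 59.4 in WT glucose, and the log2 change was 2.51 ± 0.16 (adjusted p = 6.60e-10 in limma). The groups were well apart. SDH1 rose by 2.37 in the overexpression strain and by 2.73 in the deletion strain. The membrane anchor genes SDH3 and SDH4 rose by 2.97 and 3.32 in WT, and in the overexpression strain SDH3, at 2.12, rose less than SDH1.

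The 9 genes of complex III, the cytochrome bc1 complex, rose with class medians of 1.63 in the overexpression strain, 2.00 in the deletion strain and 1.81 in WT. The small subunit gene QCR10 rose most in WT. It read 376.0, 357.5 and 419.9 in WT ethanol, against 26.9, 31.2 and 80.9 in WT glucose, a log2 change of 2.63 ± 0.23 (adjusted p = 4.10e-08 in limma). WT glucose array 3 was the highest of its group and still far below the ethanol arrays. The smallest WT change in the complex was that of QCR8, another small subunit, with 763.2, 585.6 and 924.0 in ethanol, against 160.8, 129.4 and 325.8 in glucose. Its log2 change was 1.50 ± 0.25 (adjusted p = 9.36e-05 in limma). A second probe set of QCR8 read only 2.7 to 11.5 on all arrays and fell by 0.89 in WT ethanol (adjusted p = 0.0164), so the direction of QCR8 rests on the brighter probe set.

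RIP1, the Rieske iron-sulfur protein, and CYT1, cytochrome c1, carry the electron path to cytochrome c, while COR1 and QCR2 are the core proteins. Their log2 rises in WT were 2.32 for RIP1, 1.87 for CYT1, 1.61 for COR1 and 1.81 for QCR2. COR1 spread most among the ethanol arrays. It read 131.3, 306.7 and 76.0 on the arrays labelled overexpression ethanol, 97.6, 263.7 and 246.4 on those labelled deletion ethanol and 130.6, 139.8 and 157.2 in WT ethanol. Its SD there, 0.95 on the log2 scale in the arrays labelled overexpression ethanol, was the largest of the 38 genes in that group, where the median SD was 0.14.

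CYC1, the main form of cytochrome c in aerobic cells, read 1096.8, 955.7 and 1425.6 in WT ethanol, against 236.8, 292.3 and 406.3 in WT glucose. It read 1213.8, 1595.4 and 957.3 on the arrays labelled deletion ethanol, against 253.3, 383.8 and 331.2 in deletion glucose. It read 1055.1, 1326.9 and 1137.9 on the arrays labelled overexpression ethanol, against 500.5, 705.2 and 644.9 in overexpression glucose. The ethanol arrays were above the glucose arrays in every strain, and the glucose arrays of the overexpression strain were the highest of the glucose arrays. The log2 rise was 1.04 ± 0.17 in the overexpression strain (adjusted p = 8.32e-05 in limma), 2.23 ± 0.17 in the deletion strain and 1.56 ± 0.17 in WT.

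Complex IV, cytochrome c oxidase, is represented by 8 nuclear subunits, which surround a mitochondrially encoded core. Their class medians were 1.42 in the overexpression strain, 2.12 in the deletion strain and 2.17 in WT. COX9 had the largest WT change, with 508.3, 490.4 and 814.6 in ethanol, against 51.8, 54.4 and 121.5 in glucose (log2 change 2.45 ± 0.22, adjusted p = 6.28e-08 in limma). COX13 had the smallest, with 503.8, 474.0 and 686.5 in ethanol, against 109.1, 124.8 and 149.4 in glucose (log2 change 1.58 ± 0.16, adjusted p = 2.97e-07). Neither gene overlapped between the carbon sources. COX4, COX5A, COX6, COX7, COX8 and COX12 lay between them, at 2.16, 2.28, 2.27, 2.19, 2.05 and 2.11.

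The F1 part of the ATP synthase makes ATP on a ring of alpha and beta subunits, inside which the central gamma subunit turns. Its 5 genes had class medians of 1.17 in the overexpression strain, 1.71 in the deletion strain and 1.61 in WT. ATP3, the gamma subunit, read 1107.1, 958.1 and 1324.8 in WT ethanol, against 184.2, 247.3 and 349.0 in WT glucose (log2 change 1.83 ± 0.17, adjusted p = 1.22e-07 in limma). ATP1, the alpha subunit, read 467.7, 371.2 and 538.4 in WT ethanol, against 111.9, 172.4 and 143.2 in WT glucose (log2 change 1.20 ± 0.19, adjusted p = 6.37e-05). Both were apart in all arrays, ATP1 by the smaller margin. The beta subunit gene ATP2 rose by 1.50 and the delta subunit gene ATP16 by 1.61 in WT.

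ATP15, the epsilon subunit, showed the smallest change of all 38 genes in the overexpression strain. It read 952.7, 997.3 and 660.3 on the arrays labelled overexpression ethanol, against 502.7, 501.9 and 563.5 in overexpression glucose. In WT it read 972.3, 795.6 and 1146.6 in ethanol, against 143.5, 201.3 and 320.1 in glucose. The glucose arrays of the overexpression strain were all above those of WT, and array 3 labelled overexpression ethanol was below every WT ethanol array. The log2 change of ATP15 was 0.69 ± 0.21 in the overexpression strain (adjusted p = 0.0167 in limma) and 1.79 ± 0.21 in WT. The call in the overexpression strain was lost under some alternatives, among them centring on array medians, where the change was 0.26 (adjusted p = 0.330). It was also lost without overexpression glucose array 2, at 0.44, and without array 1 or array 2 labelled overexpression ethanol, at 0.58 and 0.60.

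The stalk and membrane part holds F1 in place, conducts protons and joins synthase dimers. The 8 nuclear genes listed for it had class medians of 1.28 in the overexpression strain, 1.61 in the deletion strain and 1.70 in WT. ATP17 read 278.6, 309.5 and 436.3 in WT ethanol, against 34.5, 46.3 and 80.2 in WT glucose (log2 change 2.18 ± 0.20, adjusted p = 1.29e-07 in limma). ATP20, a subunit that takes part in dimer formation, read 108.9, 91.8 and 145.5 in WT ethanol, against 26.9, 22.2 and 51.9 in WT glucose (log2 change 1.20 ± 0.25, adjusted p = 0.000808). The WT arrays did not overlap for either gene. ATP20 read 87.5, 176.7 and 88.2 on the arrays labelled deletion ethanol, against 32.5, 47.6 and 57.9 in deletion glucose. Its log2 change of 0.94 there (adjusted p = 0.00565) was the smallest of the 38 in that strain. ATP14 has 2 probe sets, and both rose in WT.

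The 3 regulators act on the ATPase activity of the synthase. Their class medians were 1.94 in the overexpression strain, 2.57 in the deletion strain and 2.55 in WT. INH1, the ATPase inhibitor, had the largest WT change of the 38. It read 567.5, 579.1 and 551.7 on the arrays labelled overexpression ethanol, against 124.8, 119.1 and 141.3 in overexpression glucose. It read 397.0, 669.7 and 408.6 on the arrays labelled deletion ethanol, against 46.0, 44.3 and 54.1 in deletion glucose. In WT it read 335.2, 381.4 and 568.3 in ethanol, against 11.6, 17.3 and 45.3 in glucose. As deposited, the strains overlapped in ethanol, while after normalization the overexpression arrays lay apart from those of the other strains. In glucose the overexpression arrays were above all others. The log2 rise of INH1 was 2.07 ± 0.28 in the overexpression strain, 3.04 ± 0.28 in the deletion strain and 3.71 ± 0.28 in WT (adjusted p = 6.24e-09 in limma for WT).

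STF1, which is related to INH1, had the smallest WT change of the 3 regulators. It read 352.0, 277.0 and 406.5 in WT ethanol, against 32.9, 31.0 and 56.8 in WT glucose (log2 change 2.54 ± 0.16, adjusted p = 6.98e-10 in limma). STF2 rose by 2.55 in WT, so these 2 genes differed by far less than the SE. INH1 lay above them.

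**Figure D2:**
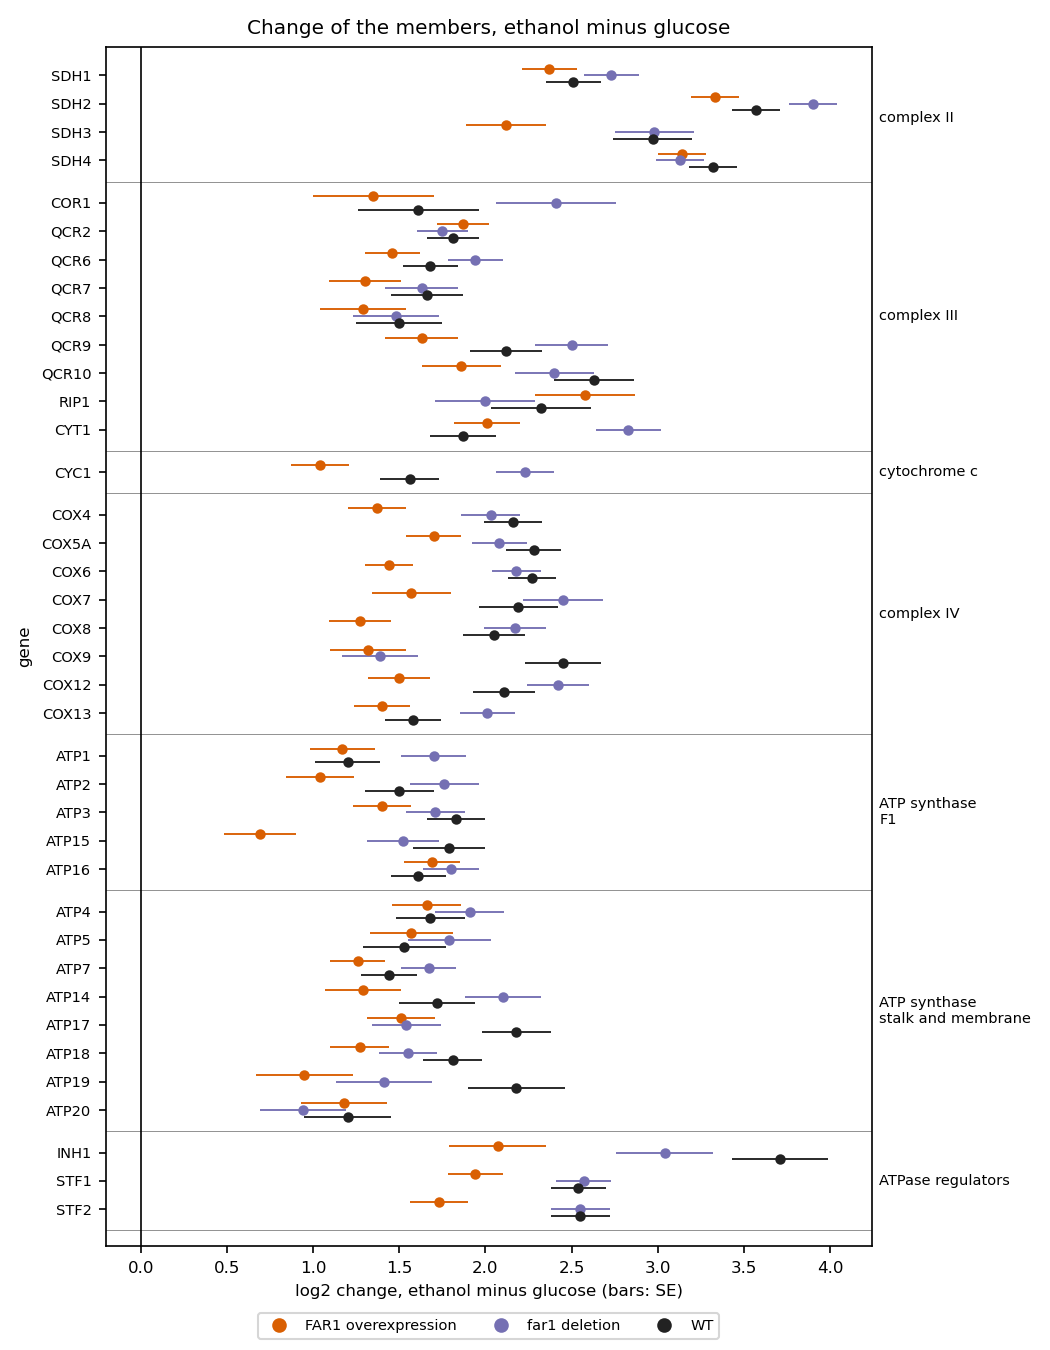
Log2 change, ethanol minus glucose, of each of the 38 genes in the overexpression strain, the deletion strain and WT (points), with its SE (bars), by complex. All points lie right of 0. In WT INH1, SDH2 and SDH4 lie farthest right and ATP1 and ATP20 nearest to 0, and in complex IV every overexpression point lies left of the WT point.

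The order of the changes was alike between strains. Over the 38 genes, Pearson's r of the log2 changes was 0.73 between the overexpression strain and WT (Spearman's rho 0.69) and 0.75 between the deletion strain and WT (rho 0.61). These values describe genes measured on the same arrays, which are not independent. The change was smaller in the overexpression strain than in WT for 33 of the 38 genes, and in the deletion strain than in WT for 17. Among all 5545 genes it was smaller for 3383 and 2772.

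The difference of these changes between strains was tested as an interaction, which uses the same glucose arrays as the strain comparisons in glucose. In the overexpression strain against WT, 0 of the 38 genes were called in limma, and 16 had an unadjusted p under 0.05. Of all genes 0.18% were called and 13.7% had such a p. The median difference was -0.45, against -0.10 for all genes, and all 8 genes of complex IV and all 3 regulators had a value below 0. INH1 came nearest to the threshold, at -1.64 ± 0.39 (adjusted p = 0.0843), followed by COX6 at -0.83 ± 0.20 (adjusted p = 0.0893). COX9 and ATP15 stood at -1.14 and -1.10 (adjusted p = 0.125 and 0.130). The count rested on single arrays. It was 7 without WT glucose array 3 and 7 without overexpression glucose array 2. In these fits 1.3% and 2.92% of all genes were called.

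In the deletion strain against WT, 0 of the 38 interactions were called in limma, with 0.0% of all genes called. An unadjusted p under 0.05 was found for 4 of the 38, against 8.3% of all genes. These 4 were COX9 at -1.06, CYT1 at 0.96, CYC1 at 0.67 and ATP17 at -0.64, with adjusted p-values between 0.301 and 0.587. The median of the 38 was 0.02, and the count was 0 under every alternative run.

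In ethanol the strains did not differ detectably in these genes. In overexpression against WT, deletion against WT and overexpression against deletion, limma called 0 of the 38 genes in each, and 0, 1 and 0 of them had an unadjusted p under 0.05. Among all genes 0.379%, 0.0721% and 0.0% were called in these comparisons, and 10.9%, 6.8% and 5.57% had an unadjusted p under 0.05. The medians of the 38 log2 differences were 0.05, 0.05 and 0.0. The single gene was CYT1, which read 198.0, 325.8 and 299.5 on the arrays labelled deletion ethanol, against 176.3, 140.2 and 258.3 in WT ethanol. These groups overlapped as deposited but not after normalization, and the log2 difference was 0.41 ± 0.19 (adjusted p = 0.726 in limma). The 3 counts stayed at 0 under all alternatives, also without the pair of arrays with opposite FAR1 signal. With all arrays FAR1 itself was not called in these 3 comparisons (adjusted p = 0.555, 0.982 and 0.941 in limma). Without the pair its log2 differences were 7.11, -2.18 and 9.29, and 1.98%, 0.108% and 0.902% of all genes were called. On array 3 labelled deletion ethanol genes of up to 903 bases had a median difference of -0.30 from WT glucose and those over 1641 bases 0.25, and the stalk and membrane genes a median of 1.32, below the 1.80 and 1.93 of the other arrays so labelled. The part of this array in the results was tested only by leaving it out.

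In glucose, limma called 15 of the 38 genes between FAR1 overexpression and WT, all higher in the overexpression strain. Among all genes 7.39% were called, 5.36% as higher. The count of 15 was 0 without overexpression glucose arrays 1 and 3, which have little actin 5′ signal, 0 with the BioDn split as a block and 2 with only the groups compared in the fit. An unadjusted p under 0.05 was found for 21 of the 38, against 22.9% of all genes. The median log2 difference of the 38 was 0.47, against 0.07 for all genes. Of the 38, 34 were above 0, as were 3288 of all 5545 genes. On the normalized scale 18 did not overlap between the strains, against 22.9% of all genes, and 4 called genes differed by at least 2-fold, against 3.17% of all genes. By class, 6 of 8 genes of complex IV and 3 of 3 ATPase regulators were called. CYC1 was called too, and beside these 1 of 4 genes of complex II, 2 of 9 of complex III, 1 of 5 of F1 and 1 of 8 of the stalk and membrane part.

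INH1 again moved most. Its intensity of 124.8, 119.1 and 141.3 in overexpression glucose, against 11.6, 17.3 and 45.3 in WT glucose, gave a log2 rise of 2.01 ± 0.28, or 4.03-fold (adjusted p = 0.000387 in limma). STF2 and STF1 rose by 0.93 and 0.85 (adjusted p = 0.00374 and 0.00416). In complex IV, COX9 led with 219.7, 233.6 and 269.4 in overexpression glucose, against 51.8, 54.4 and 121.5 in WT glucose. The strains did not overlap, and the log2 rise was 1.20 ± 0.22 (adjusted p = 0.00292). COX4, COX6, COX8, COX12 and COX5A rose by 0.95, 0.90, 0.87, 0.79 and 0.67. COX7 and COX13 were not called, at 0.53 and 0.39 (adjusted p = 0.177 and 0.150).

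In the other classes 5 genes were called beside CYC1. SDH3, an anchor of complex II, read 103.5, 93.3 and 136.7 in overexpression glucose, against 31.5, 27.9 and 74.3 in WT glucose (log2 rise 0.88 ± 0.23, adjusted p = 0.0275 in limma). QCR10 read 129.9, 122.3 and 142.2, against 26.9, 31.2 and 80.9 in WT glucose (log2 rise 1.07 ± 0.23, adjusted p = 0.00831), and QCR9 rose by 0.88. ATP19 of the membrane part read 271.3, 244.3 and 298.0, against 48.2, 68.7 and 181.5 in WT glucose (log2 rise 1.15 ± 0.28, adjusted p = 0.0190). As deposited, a scale on which the median of all genes was 0.49 higher in the overexpression strain, the overexpression arrays were above the WT arrays for these genes. After normalization the strains overlapped for SDH3 and ATP19. WT array 3 was the highest of its group each time. ATP15 rose by 0.91 ± 0.21 (adjusted p = 0.0159) and CYC1 by 0.57 ± 0.17 (adjusted p = 0.0463).

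**Figure D3:**
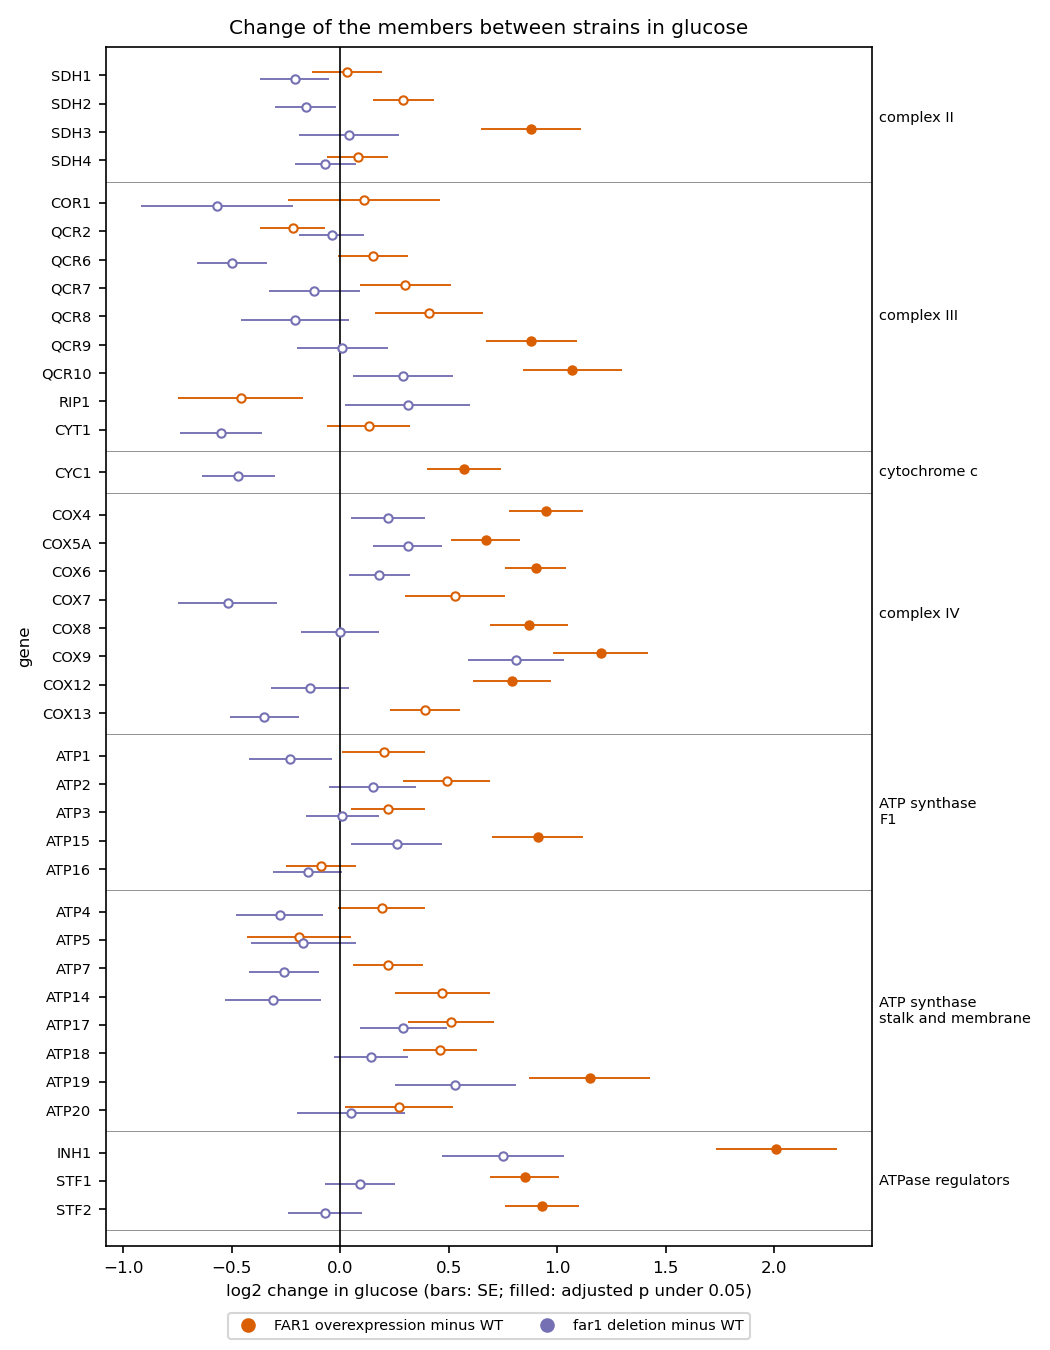
Log2 difference in glucose of each of the 38 genes, FAR1 overexpression minus WT and far1 deletion minus WT, with its SE (bars). Filled points have an adjusted p under 0.05 in limma. The 15 filled points all belong to the overexpression strain and lie right of 0, with INH1 at 2.01, and no deletion point is filled.

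RIP1 had the lowest difference, -0.46 ± 0.29 (adjusted p = 0.369 in limma). It read 54.7, 219.7 and 44.1 in overexpression glucose, against 54.4, 76.5 and 114.1 in WT glucose. Arrays 1 and 3 of the overexpression strain were far below array 2, and these are the arrays with little actin 5′ signal. A second RIP1 probe set, among the array's controls, read 25.4, 168.5 and 16.6 on the same arrays. For 28 of the 38 genes, in contrast, array 2 was the lowest of the 3 on the normalized scale. This order was not particular to the 38. The median difference of all genes from the WT glucose mean was 0.12, 0.01 and 0.15 on arrays 1, 2 and 3. For genes of up to 903 bases it was 0.21, 0.05 and 0.29.

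**Figure D4:**
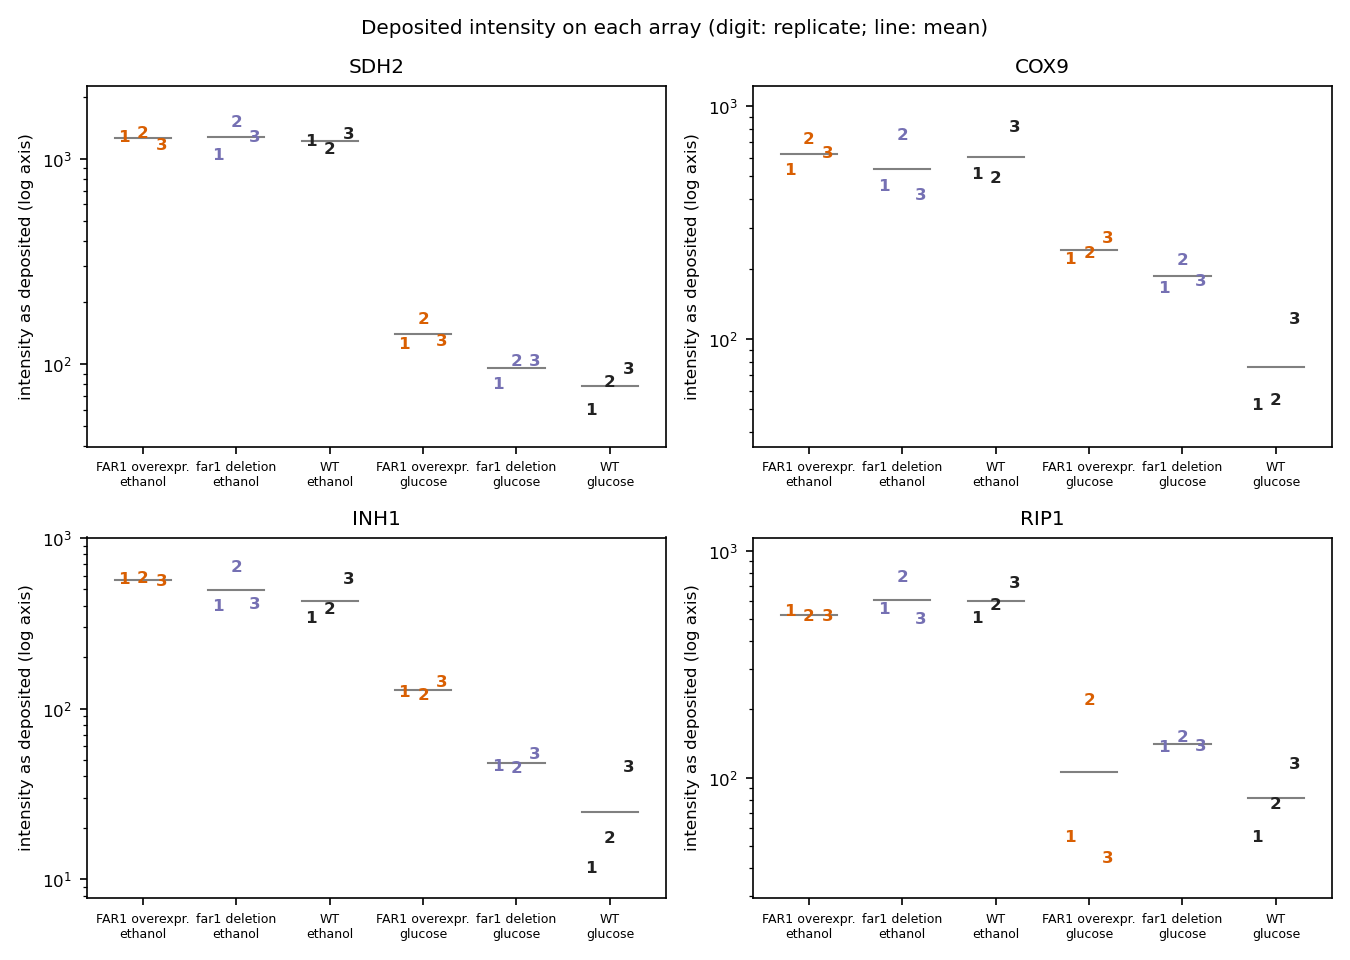
Deposited intensity (log axis) of SDH2, COX9, INH1 and RIP1 on every array, by group. Each digit is the replicate number of 1 array and each line is a group mean. Ethanol groups lie above glucose groups in each panel, and in the RIP1 panel overexpression glucose array 2, at 219.7, is apart from arrays 1 and 3, at 54.7 and 44.1.

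The fit without overexpression glucose arrays 1 and 3 gave 1.12% of all genes called, a median of 0.31 for the 38, and INH1 at 1.66 (adjusted p = 0.0524). It leaves 1 array in the group, which is taken to vary like the other groups. With the BioDn split as a block the median was 0.39, and INH1 stood at 2.23 (adjusted p = 0.0655 in limma). In that fit 0.361% of all genes were called. The block's effect was estimated from the deletion glucose arrays alone, so only these arrays separate the split from the strain. The count of the 38 was 9 without overexpression array 1 and 8 without overexpression array 3. It was 8 without WT glucose array 1 and 7 without WT glucose array 2. In these fits 3.34%, 3.37%, 4.29% and 3.03% of all genes were called. Without overexpression array 2 the count was 17, of which RIP1 was lower, at -0.98, and 11.9% of all genes were called. The genes called were short. The annotated length of the 15 was 180 to 597 bases with a median of 261, against a median of 546 for the 23 not called and 1216.5 for all genes. Of all genes of up to 903 bases, a class with 31 of the 38, 8.63% were called higher in overexpression glucose, against 3.69% of genes up to 1641 bases and 3.74% of longer ones. The part of length and of RNA quality in the rise was not tested further.

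**Figure D5:**
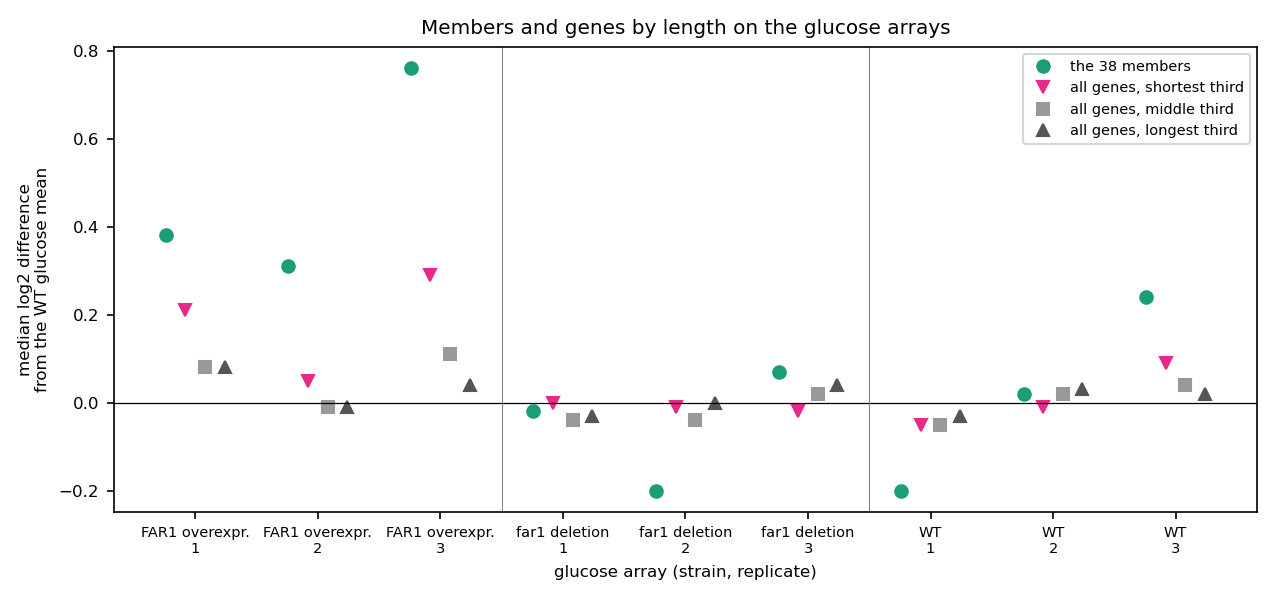
Median log2 difference from the WT glucose mean on each of the 9 glucose arrays, for the 38 genes and for all genes split by annotated length. On overexpression arrays 1, 2 and 3 the 38 genes stood at 0.38, 0.31 and 0.76 and the shortest genes at 0.21, 0.05 and 0.29, while the 3 WT arrays ranged from -0.20 to 0.24 for the 38.

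FAR1 overexpression against far1 deletion in glucose, which shares the overexpression arrays with the comparison above, had 12 of the 38 genes called, all higher in the overexpression strain, and 25 at an unadjusted p under 0.05. Among all genes 2.85% were called, 2.0% as higher, and 21.0% had such a p. The median of the 38 was 0.62, against 0.11 for all genes. The 12 were CYC1, the 3 regulators, 6 genes of complex IV, and QCR9 and QCR6 of complex III. CYC1 read 500.5, 705.2 and 644.9 in overexpression glucose, against 253.3, 383.8 and 331.2 in deletion glucose, and these did not overlap (log2 rise 1.04 ± 0.17, adjusted p = 0.00560 in limma). COX7 read 236.1, 361.5 and 393.2, against 159.5, 234.9 and 107.7 in deletion glucose (log2 rise 1.05 ± 0.23, adjusted p = 0.0264). INH1 rose by 1.26 ± 0.28 (adjusted p = 0.0264) and QCR9 by 0.87. STF2, COX12, COX8, STF1, COX13, COX4, COX6 and QCR6 rose by 1.01, 0.93, 0.87, 0.76, 0.74, 0.72, 0.72 and 0.66. COX9, the leading complex IV gene of the comparison with WT, stood at 0.39 (adjusted p = 0.316).

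This count also rested on single arrays and on the scale. It was 0 on the deposited scale and 4 with the BioDn split as a block, with 0.216% and 0.866% of all genes called. Leaving out overexpression glucose arrays 1 and 3 leaves 1 array in the group. The median of the 38 was then 0.32 instead of 0.62, and that of all genes 0.02 instead of 0.11. Leaving out overexpression array 1 gave 3, and leaving out overexpression array 3 gave 2. The count was 4 without deletion glucose array 1 and 3 without deletion glucose array 2. In these fits 0.487%, 0.505%, 0.866% and 1.1% of all genes were called. Here the BioDn block and leaving out deletion glucose array 1 are the same check, as no other array of these strains was under 0.3. Without overexpression array 2 the count was 18, with 9.63% of all genes called. Of these 18, 17 were higher and RIP1 was lower, at -1.29.

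The far1 deletion strain and WT did not differ detectably in these 38 genes in glucose in the main fit. Limma called 0 of the 38 genes, with 1.57% of all genes called, and 7 of the 38 had an unadjusted p under 0.05, against 13.9% of all genes. The median was -0.05, with 18 above 0 and 20 below. COX9 came nearest to the threshold, with 165.5, 218.5 and 176.9 in deletion glucose, against 51.8, 54.4 and 121.5 in WT glucose. The strains did not overlap, and the log2 difference was 0.81 ± 0.22 (adjusted p = 0.0736). INH1 stood at 0.75, and the other 5 of the 7 lay between -0.55 and -0.35. COX9 was called on the deposited scale, at 1.40 (adjusted p = 0.0112), and with array medians centred, at 1.01 (adjusted p = 0.0302). The count was 2 without WT glucose array 3, with COX9 and INH1, and 1 without deletion glucose array 3, with CYT1 at -0.81. In these fits 2.18% and 1.08% of all genes were called.

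Other genes of the same pathway were set beside the 38 as lists. Of 10 tested genes for alternative isoforms and for electron entry from other donors, 7 were called higher and 1 lower in ethanol in each strain. Among all 5545 genes, 964 were called higher and 1267 lower in the overexpression strain. In the deletion strain 1204 were higher and 1174 lower, and in WT 1241 and 1161. The 1 lower was COX5B, the isoform of COX5A that is known to be used at low oxygen. It read 4.3, 4.9 and 4.3 on the arrays labelled overexpression ethanol, against 66.0, 73.3 and 52.5 in overexpression glucose. In WT it read 5.0, 3.5 and 4.0 in ethanol, against 31.6, 21.5 and 29.2 in glucose. COX5A and COX5B thus moved in opposite directions, with COX5B at -3.91 ± 0.26 in the overexpression strain, -4.19 ± 0.26 in the deletion strain and -3.39 ± 0.26 in WT (adjusted p = 1.17e-08 in limma for WT).

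Of the 28 assembly factors, 15 were called higher in ethanol in the overexpression strain, 22 in the deletion strain and 23 in WT, and none lower. Among all genes 17.4%, 21.7% and 22.4% were called higher in these strains. The list medians were 0.50, 0.90 and 0.97, smaller than those of the subunits. The activator gene HAP4 read 169.5, 182.1 and 137.3 on the arrays labelled overexpression ethanol, against 16.5, 23.9 and 17.7 in overexpression glucose. In WT it read 137.4, 125.3 and 191.0 in ethanol, against 12.6, 18.9 and 10.3 in glucose. It was apart in both strains, with a log2 rise of 2.76 ± 0.24 in the overexpression strain, 3.79 ± 0.24 in the deletion strain and 2.87 ± 0.24 in WT (adjusted p = 3.99e-08 in limma for WT). HAP4 did not differ detectably between overexpression and WT in glucose, at 0.04 ± 0.24 (adjusted p = 0.958). Of the 5 regulator genes, 1 was called higher in the overexpression strain, 3 in the deletion strain and 4 in WT. HAP1, a heme-responsive regulator, was called lower in the overexpression strain, at -0.65 (adjusted p = 0.0373 in limma), and in WT, at -0.98 (adjusted p = 0.00289).

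Of the 6 mitochondrially encoded subunit genes tested, 3 were called higher in ethanol in the overexpression strain, 2 in the deletion strain and 3 in WT. The shares of all genes called higher were 17.4%, 21.7% and 22.4%. In overexpression glucose against WT glucose, 2 of the 6 were called lower, as were 113 of all 5545 genes. COX3, a core subunit of complex IV, read 0.9, 4.3 and 0.1, against 12.2, 18.8 and 2.9 in WT glucose (log2 difference -3.01 ± 0.69, adjusted p = 0.0126 in limma). COB, cytochrome b of complex III, read 1.3, 2.4 and 0.1, against 13.5, 9.5 and 2.1 in WT glucose, at -2.70 ± 0.71 (adjusted p = 0.0281). Both groups overlapped for each gene, the values lie near the floor of the arrays, and the size of such changes depends on the pseudocount. In the same comparison 3 of the 10 isoform and electron entry genes, 5 of the 28 assembly factors and 2 of 4 later described subunits were called higher. The share of all genes called higher there was 5.36%. In deletion glucose against WT glucose, 1 of the 10 isoform and electron entry genes was called higher and 1 lower. Among all 5545 genes 67 were called higher and 20 lower there. NDE2, an external NADH dehydrogenase, read 6.5, 6.1 and 3.6 in overexpression glucose, against 0.1, 1.1 and 0.4 in WT glucose. The log2 rise was 2.91 ± 0.40 (adjusted p = 0.000387 in limma). In deletion glucose NDE2 read 5.1, 4.2 and 1.7, as deposited also above every WT glucose array. The WT glucose values lie at the floor here too. NDE2 was the 1 gene of these lists called in an interaction, overexpression against WT, at -3.37 ± 0.56 (adjusted p = 0.0217).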

How the data were processed

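Per the submitters' processing notes the array scans were processed with GCOS, and the deposited values are probe set intensity on a linear scale. For the signal algorithm and any scaling target, the value is not given in the sources used here. Array medians ranged from 8.5 to 23.8 and the trimmed means from 35.3 to 77.9. Arrays give no read depth, and their number limits the precision.

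Of 9335 probe sets, 60 controls were left out, and 6504 of the other 9275 matched 1 gene, 5656 genes in all. The probe set with the highest mean stood for a gene. Values were log2(intensity + 0.4), the pseudocount being the 10th percentile, and quantile normalized, so fold changes of dim genes are understated. Genes above the 20th percentile of their array on at least 3 arrays were tested, 5545 in all. limma 3.58.1 (R 4.3.3) fitted the 6 group means on 18 arrays (eBayes with an intensity trend, 12 residual and 5.47 prior degrees of freedom), for 11 comparisons, each with Benjamini-Hochberg adjustment and a threshold of 0.05. Errors are SE from this fit, and p-values measure the spread between cultures. The fit was tested on simulated data.

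The 38 genes and the other lists were chosen with earlier results of these data known, and list counts are descriptions. Values of every array are given for the largest and smallest WT ethanol change of each class, the largest change called between strains in each class and HAP4. Array values of further genes, such as COR1 and RIP1, were chosen after they were seen. Gene length is the annotated span in RefSeq, introns included. The genome build is not given in the sources used here, and neither sequences nor coordinates are printed. YJL045W had no usable probe set, and 1 mitochondrially encoded gene was not tested. Alternatives changed the scale, pseudocount, filter, probe set, arrays, trend and blocks. Same-numbered arrays of different groups did not deviate together (mean r = -0.01 over 45 pairs, against 0 over 90 other pairs), so the fit had no block for the replicate number.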

Additional observations from a re-analysis of the deposited data

How the results depend on the processing

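In ethanol against glucose the 38 genes kept their calls in WT under all 16 alternatives, except QCR8 with its dimmer probe set. The number called was 37 to 38 in the deletion strain under 17 alternatives and 36 to 38 in the overexpression strain under 19. The calls lost there were of ATP15, ATP19 and COR1, beside QCR8. Of all genes 36.7% to 45.7% were called in WT and 33.3% to 45.8% in the deletion strain. In the overexpression strain the share was 26.3% to 45% in the fits with more than 1 array in each group. The medians of the 38 ranged from 1.06 to 1.74 in the overexpression strain, from 1.58 to 2.14 in the deletion strain and from 1.68 to 2.42 in WT. With the dimmer probe set QCR8 reversed, to -1.27 in the overexpression strain, -0.65 in the deletion strain (adjusted p = 0.0716) and -0.89 in WT, and why the 2 probe sets differ was not tested. The deposited scale shifts all genes by a median of 0.28, 0.36 and 0.66 in these strains.

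Overexpression against WT in glucose gave 22 calls on the deposited scale, where the median of all genes was 0.49, 0 with the BioDn split as a block, 0 without the arrays lacking actin 5′ signal, and 2 with only the groups compared in the fit. Of all genes 16.3% were called on the deposited scale, 0.361% with the block and 1.12% with only the groups compared. Leaving out 1 array gave 7 to 17, with 3.03% to 11.9% of all genes called. Overexpression against deletion in glucose gave 0 on the deposited scale, 4 with the block and 0 with only the groups compared. The shares of all genes were 0.216%, 0.866% and 0.0902%. Leaving out 1 array there gave 2 to 18, with 0.487% to 9.63% of all genes called. Fewer arrays or a block leave fewer degrees of freedom. Deletion glucose was the only group on both sides of the BioDn split, at 0.174, 0.476 and 0.369. The block's effect was thus estimated from that group alone, and its error enters the comparisons of a FAR1 strain with WT within a carbon source. In the overexpression interaction the block cancels, and the median of the 38 was -0.45 with and without it. Between the FAR1 strains the block is the same as leaving out deletion glucose array 1. Beyond this the cause of the lower counts was not tested. Deletion against WT in glucose gave 1 call on the deposited scale, 1 with array medians centred and 0 to 2 with 1 array left out. The shares of all genes were 2.4%, 1.48% and 0.505% to 2.18%. The overexpression interaction gave 1 call with array medians centred and 0 to 7 with 1 array left out. The shares of all genes were 0.343% and 0% to 2.92%. The counts in ethanol between strains and for the deletion interaction were 0 under every alternative. A replicate block, run although the numbers do not pair the arrays, gave 38 calls in each ethanol comparison. In glucose it gave 14 in overexpression against WT and 11 in overexpression against deletion. In the ethanol comparisons 40% of all genes were called in the overexpression strain, 42.3% in the deletion strain and 42.1% in WT. In the 2 glucose comparisons the shares were 6.4% and 2.6%. Leaving out both the arrays with opposite FAR1 signal and those lacking actin 5′ signal was chosen after seeing the data. It leaves 1 overexpression glucose array, and the median ethanol change of the 38 in that strain was then 1.74.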
